A study of Capra hircus with 12 samples.

Results

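The genes described here are 10 chemokine and colony-stimulating factor genes, CCL2, CCL5, CCL20, CXCL8, CXCL12, CX3CL1, ACKR3, CSF1, CSF2 and CSF3, chosen by name. Of these, 9 had a row among the 28910 rows of the goat count tables. No row is named CCL2, and CCL2 was not analysed here. RNA was sequenced from cultured cells of the temporomandibular joint, taken from condyles of female goats aged 6 to 9 months from abattoirs and used at passages 3 to 5. The 12 libraries comprise 3 replicates of each of 4 groups: superficial layer cells (SLC) and middle cartilage layer cells (MLC), each with IL-1β or with IL-1β + LOXL2. All 4 groups received 10 ng IL-1β for 1 h, and the LOXL2 groups had been transduced overnight with the adenovirus Ad5-LOXL2. The flow cytometry methods name an Ad5-Empty control, but whether the IL-1β groups sequenced here received it is not stated, so effects of LOXL2 and of the virus cannot be told apart. Vehicle-treated cells were not analysed here, and the response to IL-1β itself was therefore not measured.

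Chemokines are small secreted proteins that bind heparan sulfate and G protein-coupled receptors and direct the migration of leukocytes and progenitor cells. Colony-stimulating factors act on the survival, growth and activity of macrophages and granulocytes, and CSF1 is also required for osteoclast formation. In cartilage cells, IL-1β signalling through NF-κB and AP-1 is known to raise transcription of several of these genes within hours, and their mRNAs often carry AU-rich elements that shorten their life.

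The SLC libraries held 18751323 to 22123593 counts with IL-1β (median 19728437) and 21080134 to 28931652 with LOXL2 (median 22249738). The MLC libraries held 14158607 to 15330697 counts with IL-1β (median 14976796) and 14188227 to 19459045 with LOXL2 (median 18886663). Levels are given as CPM, counts divided by library size and scaled by TMM over all 12 libraries, and 3 counts correspond to 0.1111 to 0.2146 CPM. Lengths of transcripts were not available, so levels are compared within a gene and not between genes. Nothing in the labels says that replicates are separate animals or cultures, so each p-value measures only the spread between these libraries.

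The first SLC replicate with LOXL2 stood apart from the others of its group. Its chi-square per degree of freedom, a measure of replicate difference that is near 1 for pure counting noise, was 169 against the second replicate and 62.0 against the third, and 31.0 between those others. In the MLC group with LOXL2, the values were 16.2 and 36.0 for the pairs that hold the first replicate and 6.10 for the remaining pair. Pairs of IL-1β libraries had values of 2.30 to 9.93. Results of the members, ligands, receptors and regulators in SLC are given with and without its first LOXL2 replicate below.

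The LOXL2 gene (chromosome 8, 70222328 to 70337511, in the RefSeq annotation of the goat build ARS1.2, which gives all coordinates here) was read as a check of the labels. Its mean in SLC was 622.1 CPM with IL-1β and, where the label adds LOXL2, 521.7 CPM, a log2 fold change of -0.27 (SE 0.11, adjusted p = 0.106 from edgeR). In MLC the means were 820.0 and 784.6 CPM, with a log2 fold change of -0.066 (SE 0.086, adjusted p = 0.595). No excess of reads on the goat LOXL2 gene marks the LOXL2 groups. The species of the delivered LOXL2 was not given, whether its reads would be counted on the goat gene was not tested, and directions for these groups rest on the labels.

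The layer labels were read against marker genes. COL2A1, the main collagen of cartilage, had 0 counts in the SLC group with IL-1β and 1 in the SLC group with LOXL2, against 736 and 858 in the corresponding MLC groups. ACAN, the cartilage proteoglycan core protein, and SOX9, the chondrocyte transcription factor, had log2 fold changes between layers of 3.08 (SE 0.084, adjusted p = 2.77e-12) and 2.04 (SE 0.083, adjusted p = 1.59e-10) with IL-1β. Of 8 chondrocyte markers tested, 6 were higher in MLC in each treatment and none was lower, where 46.9% of all genes passed with IL-1β and 16.1% with LOXL2. The list's median log2 fold change was 1.96 with IL-1β and 1.89 with LOXL2, and COL11A1, its most abundant gene, was at -0.042 (adjusted p = 0.609) and 0.26 (adjusted p = 0.551). COL2A1 and COL9A1 passed the filter on low counts through MLC alone, which fixed their direction in these counts and medians. ACAN, SOX9, COMP and HAPLN1 could be tested within each layer and were higher in MLC in each treatment. Of the markers of the fibrous superficial layer, 8 of 9 were tested with IL-1β, TNMD being at 0 in all libraries. In MLC, 4 of them were higher and 2 lower (median 0.36), COL1A2 at -0.34 (adjusted p = 0.00109) among the latter. COL1A1 missed the threshold in edgeR at -0.19 (adjusted p = 0.0573) and passed in DESeq2 (adjusted p = 0.00631). PRG4, the lubricin gene, was higher (log2 fold change 0.44, SE 0.172, adjusted p = 0.0466; 0.0802 by DESeq2). PRG4 lost its call in each fit that left out a library, except the second MLC replicate, and without the third MLC replicate its difference was 0.28 (adjusted p = 0.25). Layer and any separate handling of the layers cannot be told apart.

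CXCL8 (chromosome 6, 89335401 to 89338881) encodes interleukin 8, which attracts neutrophils. In SLC it measured 181.5, 200.2 and 218.5 CPM with IL-1β and 106, 224.1 and 177 CPM with LOXL2. In MLC it measured 258.2, 424.6 and 304.4 CPM with IL-1β and 249.3, 258.6 and 250.5 CPM with LOXL2. Every MLC library lay above every SLC library, and the treatments overlapped within each layer. The group means were 200.1 ± 18.5, 169 ± 59.5, 329.1 ± 85.9 and 252.8 ± 5.06 CPM (SD, n = 3), in the same order of groups.

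CCL20 (chromosome 2, 19751808 to 19755322) encodes the ligand of CCR6, which attracts Th17 cells and immature dendritic cells. Its SLC levels were 50.41, 44.05 and 52.91 CPM with IL-1β and 21.25, 138.6 and 78.87 CPM with LOXL2. Its MLC levels were 61.00, 130.1 and 79.92 CPM with IL-1β and 65.36, 79.76 and 74.28 CPM with LOXL2. The SLC IL-1β libraries lay below all MLC libraries, whereas the SLC libraries with LOXL2 held both the lowest and the highest of the 12 values. Group means were 49.1 ± 4.57, 79.6 ± 58.7, 90.35 ± 35.7 and 73.1 ± 7.27 CPM (SD, n = 3).

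CCL5 (chromosome 19, 14157361 to 14164201), or RANTES, attracts T cells and monocytes. SLC libraries had 1.60, 1.73 and 1.97 CPM with IL-1β (31, 39 and 40 counts) and 0.684, 4.89 and 2.28 CPM with LOXL2 (15, 132 and 50 counts). MLC libraries had 5.28, 7.98 and 5.86 CPM with IL-1β (75, 122 and 88 counts) and 6.45, 12.2 and 12.6 CPM with LOXL2 (125, 171 and 232 counts). All MLC libraries were above all SLC libraries, and the second SLC replicate with LOXL2 came nearest to them. Group means were 1.77 ± 0.19, 2.62 ± 2.12, 6.37 ± 1.42 and 10.4 ± 3.44 CPM (SD, n = 3).

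CXCL12 (chromosome 28, 824120 to 851974) encodes a homeostatic chemokine that retains stem and progenitor cells in their niches through CXCR4. It measured 58.9, 59.9 and 56.2 CPM in SLC with IL-1β and 44.3, 63.65 and 53.2 CPM with LOXL2. In MLC it measured 12.3, 11.1 and 15.1 CPM with IL-1β and 12.2, 9.80 and 10.2 CPM with LOXL2. The layers were far apart and in the reverse order of the ligands above, with every SLC library above every MLC library. Group means were 58.3 ± 1.94, 53.7 ± 9.67, 12.8 ± 2.08 and 10.7 ± 1.27 CPM (SD, n = 3).

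ACKR3 (chromosome 3, 4718366 to 4730864) encodes an atypical receptor that binds CXCL12 and removes it from the surroundings without G protein signalling. Its SLC levels were 634.9, 685.6 and 708.7 CPM with IL-1β and 581.7, 670.6 and 678.4 CPM with LOXL2. Its MLC levels were 247.8, 324.5 and 260.2 CPM with IL-1β and 273, 279.1 and 265.1 CPM with LOXL2. The receptor was thus higher in the layer in which its ligand was higher, and the treatments overlapped in both layers. Group means were 676 ± 37.8, 644 ± 53.7, 277.5 ± 41.1 and 272 ± 7.04 CPM (SD, n = 3).

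CSF1 (chromosome 3, 87063962 to 87084717) encodes the macrophage colony-stimulating factor. It measured 218.5, 203.8 and 202.6 CPM in SLC with IL-1β and 182.2, 197.2 and 201.6 CPM with LOXL2. In MLC it measured 140.7, 163.6 and 144.3 CPM with IL-1β and 149.4, 148.4 and 139.2 CPM with LOXL2. The layers did not overlap, and within SLC the LOXL2 libraries lay just below the others. Group means were 208 ± 8.86, 194 ± 10.2, 149.5 ± 12.3 and 146 ± 5.62 CPM (SD, n = 3).

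CSF2 (chromosome 7, 88163476 to 88165829) encodes the granulocyte-macrophage factor GM-CSF and was close to the detection floor in SLC. SLC libraries had 8, 12 and 10 counts with IL-1β (0.413, 0.532 and 0.494 CPM) and 6, 17 and 5 counts with LOXL2 (0.274, 0.630 and 0.228 CPM). MLC libraries had 38, 54 and 29 counts with IL-1β (2.68, 3.53 and 1.93 CPM) and 51, 45 and 56 counts with LOXL2 (2.63, 3.22 and 3.04 CPM). Every MLC library exceeded every SLC library. Group means were 0.48 ± 0.061, 0.377 ± 0.22, 2.71 ± 0.802 and 2.96 ± 0.301 CPM (SD, n = 3).

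CSF3 (chromosome 19, 39978257 to 39980923) encodes the granulocyte factor G-CSF. It measured 4.65, 5.72 and 6.12 CPM in SLC with IL-1β and 0.775, 11.8 and 6.47 CPM with LOXL2. In MLC it measured 11.1, 26.8 and 16.97 CPM with IL-1β and 11.25, 20.1 and 15.7 CPM with LOXL2. With IL-1β alone the layers did not overlap, whereas the second SLC replicate with LOXL2 reached into the MLC range. Group means were 5.50 ± 0.762, 6.36 ± 5.52, 18.3 ± 7.93 and 15.7 ± 4.43 CPM (SD, n = 3).

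CX3CL1 (chromosome 18, 26740199 to 26752246), the membrane-bound fractalkine, was at the limit of detection. Its counts were 4, 3 and 2 in SLC with IL-1β, 5, 7 and 10 in SLC with LOXL2, 6, 6 and 1 in MLC with IL-1β and 3, 4 and 4 in MLC with LOXL2. The SLC libraries with LOXL2 lay just above the SLC libraries with IL-1β, at counts too low to rest on, and the MLC groups overlapped each other and both SLC groups. The gene did not pass the filter on low counts and was not tested. Comparisons below therefore cover 8 of the 9 genes with a row.

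**Figure D1:**
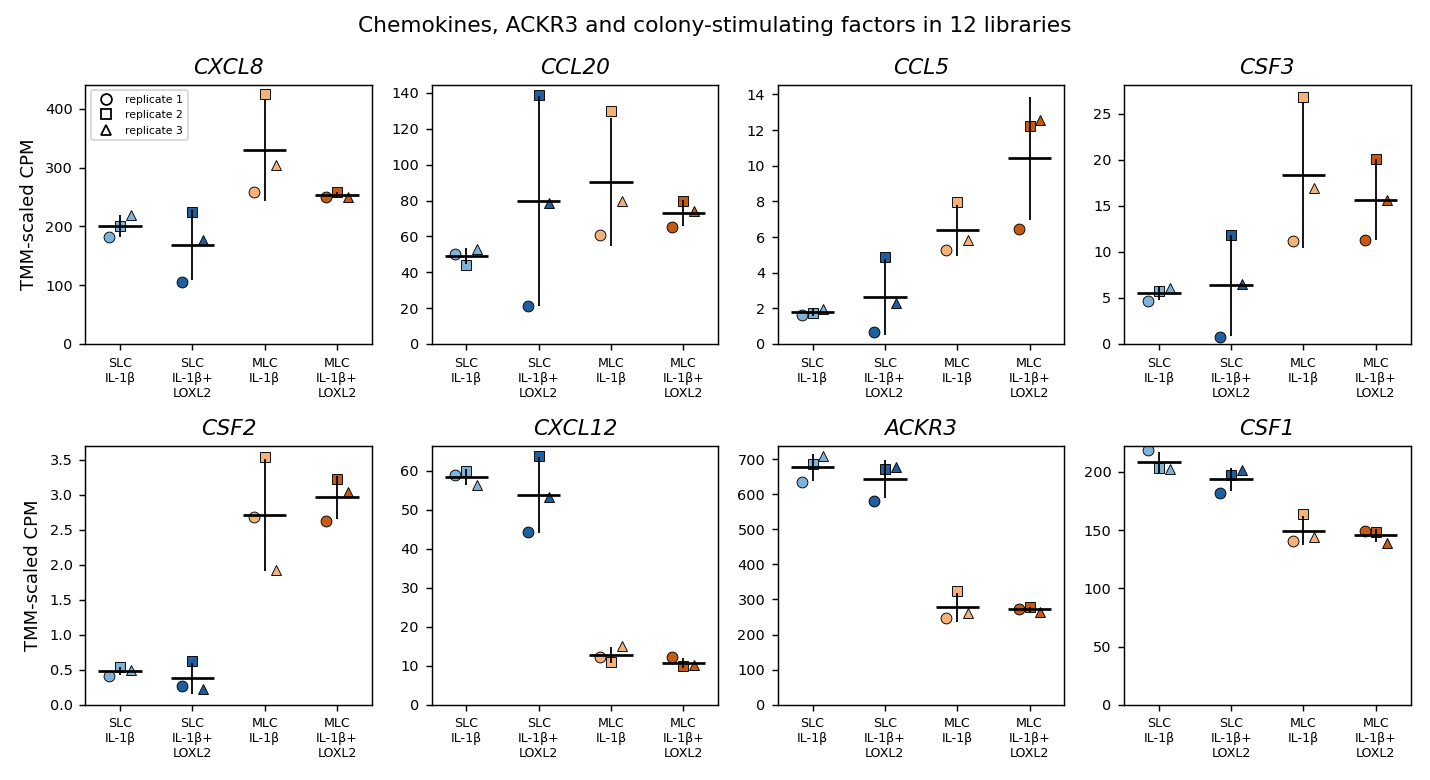
Levels of the 8 tested genes in TMM-scaled CPM for each of the 12 libraries, by group, with circles, squares and triangles for replicates 1, 2 and 3, lines for the means and bars for the SD. CXCL12, ACKR3 and CSF1 are higher in SLC and CCL5, CXCL8 and CSF2 in MLC in every library. Relative to the mean, CSF3, CCL5 and CCL20 spread most in SLC with LOXL2.

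With IL-1β alone, the comparison of MLC with SLC asks how the layers differ under the same cytokine. CSF2, CCL5, CSF3, CCL20 and CXCL8 were higher in the middle layer, and CXCL12, its scavenger receptor ACKR3 and CSF1 were lower. The differences were 5.58-fold for CSF2, 3.61-fold for CCL5, 3.34-fold for CSF3, 1.85-fold for CCL20 and 1.65-fold for CXCL8. CSF2 passed the filter on low counts through its MLC libraries alone, which favoured a higher value there. CXCL12 was 4.54-fold, ACKR3 2.43-fold and CSF1 1.39-fold higher in SLC. In bulk RNA, fewer cells of a type and less RNA per cell cannot be told apart.

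All 8 tested members passed the threshold of an adjusted p under 0.05 in edgeR, 5 higher and 3 lower in MLC, where 46.9% of all 13965 genes tested passed it (24.2% higher and 22.7% lower). The layers did not overlap for any of the 8, as for 55.8% of all genes, and DESeq2 also called 8 (41.6% of all genes). Log2 fold changes were 2.48 for CSF2 (SE 0.32, adjusted p = 1.86e-05), 1.85 for CCL5 (SE 0.206, adjusted p = 4.46e-06) and 1.74 for CSF3 (SE 0.242, adjusted p = 3.9e-05). CXCL8 differed by 0.72 (SE 0.133, adjusted p = 0.000462). CCL20 differed by 0.89 (SE 0.189, adjusted p = 0.00145). In the opposite direction stood CXCL12 at -2.18 (SE 0.0965, adjusted p = 3.67e-10), ACKR3 at -1.28 (SE 0.0893, adjusted p = 3.86e-08) and CSF1 at -0.47 (SE 0.0679, adjusted p = 5.04e-05). The median over the 8 was 0.80, against -0.007 over all genes tested. Because CSF2 passed the filter through MLC, the counts of members and this median hold it with that limit. CCL20 lost its call when all 12 libraries were fitted together (0.88, adjusted p = 0.203, the highest of a range from 1.54e-18 over the alternatives), and without the second MLC replicate its difference was 0.53 (adjusted p = 0.000214).

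Other ligands and receptors from lists of the families were few. Of 24 CC ligands written down, 13 had a row, and CCL1, CCL16, CCL19, CCL21 and CCL22 were at 0 in all 12 libraries. CCL17, a ligand of CCR4, had 1 count in each SLC group and 72 and 78 counts in MLC with IL-1β and with LOXL2. With IL-1β alone, 3 of 4 CC ligands tested were higher in MLC (CCL17, CCL5 and CCL20), with a median log2 fold change over the 4 of 1.37, and none was lower, where 46.9% of all genes passed and 24.2% of all genes were higher. CCL17 passed the filter on low counts through its MLC libraries alone, which fixed its direction. Nothing about the list is concluded from this count and median. Of 19 CXC, C and CX3C ligands, 11 had a row and CXCL9, CXCL10, CXCL11 and CXCL13 were at 0.

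CXCL16, a ligand that is also made as a membrane-bound scavenger receptor, measured 19.94, 19.96 and 21.1 CPM in SLC with IL-1β and 25.9, 31.1 and 29.4 CPM in MLC. With LOXL2 it measured 19.4, 27.7 and 25.5 CPM in SLC and 30.7, 29.7 and 31.0 CPM in MLC. Its MLC libraries lay above the SLC libraries of the same treatment. The log2 fold change was 0.51 (SE 0.0859, adjusted p = 0.000225) with IL-1β and 0.35 (SE 0.147, adjusted p = 0.164) with LOXL2. CXCL14, chosen after its values were seen, was also higher in MLC, by 1.42 (SE 0.364, adjusted p = 0.00534) and 2.38 (SE 0.364, adjusted p = 0.00441). With IL-1β, 3 of the 5 tested ligands of these classes were thus higher (CXCL8, CXCL16 and CXCL14) and CXCL12 was lower, with a median of 0.51, against 46.9% of all genes called. CXCL14 was too low in SLC to be tested between treatments there and passed the filter through MLC, so the count holds it with that limit.

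Among 23 chemokine receptors, 20 had a row, 4 were tested with IL-1β, and CCR6, the receptor of CCL20, was at 0 in all libraries, as was XCR1. CXCR4, the signalling receptor of CXCL12, had 1.86, 1.11 and 1.33 CPM in SLC and 2.04, 2.55 and 2.73 CPM in MLC with IL-1β. It was higher in MLC, where its ligand was lower (log2 fold change 0.78, SE 0.258, adjusted p = 0.0224). ACKR4, a scavenger of CCL19, CCL21 and CCL25, went the other way, with 67, 61 and 53 counts in SLC and 9, 12 and 4 in MLC (log2 fold change -2.36, SE 0.322, adjusted p = 3.21e-05). With ACKR3, the list had 1 gene higher and 2 lower of 4, with a median of -0.55, against 46.9% of all genes called. ACKR4 passed the filter on low counts through SLC, so the count and median hold it with that limit. CXCR4 lost its call when all 12 libraries were fitted together, and without the third MLC, the second SLC or the third SLC replicate (adjusted p up to 0.143).

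All 8 genes of the list of colony-stimulating factors and receptors had a row. CSF3R, the receptor of G-CSF, was at 0 in all libraries, and CSF2RB, the shared beta subunit of the GM-CSF receptor, had 9 counts in all. IL34, the other ligand of CSF1R, measured 12.0, 10.4 and 12.1 CPM in SLC and 11.55, 15.9 and 11.6 CPM in MLC with IL-1β, and these overlapped (log2 fold change 0.19, adjusted p = 0.273). Of the 6 genes tested, CSF2 and CSF3 were higher and CSF1 was lower in MLC, near the 46.9% of all genes called, and the median was 0.17. CSF2 passed the filter on low counts through MLC, so the count and median hold it with that limit. IL34, CSF1R and CSF2RA did not pass the threshold.

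With LOXL2 added, the layers were again apart for CXCL12, ACKR3, CSF1 and CSF2. CXCL12 was 4.95-fold, ACKR3 2.34-fold and CSF1 1.32-fold higher in SLC, and CSF2 was 7.62-fold higher in MLC. CSF2 again passed the filter on low counts through MLC, which favoured a higher value there. CCL5 and CXCL8 were also above SLC in every MLC library, by 3.98-fold for CCL5, without passing the threshold. CCL20 and CSF3 overlapped between the layers.

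In this comparison 4 of the 8 tested members passed the threshold, 1 higher and 3 lower, and 16.1% of 14085 genes tested did so (9.27% higher and 6.83% lower). The layers did not overlap for 6 of the 8, and for 35% of all genes. At an unadjusted p under 0.05 there were 6 members and 29.6% of genes, and DESeq2 called 5 members and 20.5% of genes. Log2 fold changes were 2.93 for CSF2 (SE 0.38, adjusted p = 0.00219), -2.31 for CXCL12 (SE 0.169, adjusted p = 0.000297), -1.23 for ACKR3 (SE 0.111, adjusted p = 0.00057) and -0.40 for CSF1 (SE 0.103, adjusted p = 0.0378). Those that missed it were CCL5 at 1.99 (SE 0.585, adjusted p = 0.0587), CXCL8 at 0.60 (SE 0.237, adjusted p = 0.139), CSF3 at 1.31 (SE 0.705, adjusted p = 0.268) and CCL20 at -0.097 (SE 0.536, adjusted p = 0.928). Of these, DESeq2 called CCL5 (adjusted p = 0.00252). The median over the 8 was 0.25, against -0.031 over all genes. CSF2 passed the filter through MLC, so this median, these counts of members and those of the fits that follow hold it with that limit.

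Replicates of the same number varied together between the layers in the LOXL2 groups (r over genes of 0.745, 0.314 and 0.306 for replicates 1, 2 and 3), so values from a fit with the replicate as a block are given beside these. However, the second SLC replicate correlated more with the third MLC replicate (r 0.612) than with the second, so the numbers do not settle which libraries pair. With the block 7 members and 27.6% of all genes passed (16.1% without it), with CCL5 at 2.19 (adjusted p = 0.00102), CXCL8 at 0.66 (adjusted p = 0.022), CSF3 at 1.65 (adjusted p = 0.0185) and CCL20 at 0.22 (adjusted p = 0.681). Over all alternatives the adjusted p ranged from 0.000561 to 0.196 for CCL5, from 0.022 to 0.311 for CXCL8 and from 0.00987 to 0.518 for CSF3. Without both first replicates, a choice made after seeing the data, 7 members and 31.4% of all genes passed, with CCL5 at 1.80 (adjusted p = 0.000561), CXCL8 at 0.37 (adjusted p = 0.0488) and CSF3 at 0.98 (adjusted p = 0.00987). The difference of CCL20 was -0.55 without the first SLC replicate and 0.56 without the second, so its sign rests on single libraries. That of CSF3 was 0.79 without the first and 2.11 without the second, and that of CXCL8 was 0.36 without the first. CCL5 was at 1.54 without the first SLC replicate and at 2.81 without the second. CSF2 was at 3.53 without the second SLC replicate and at 2.68 without the third. CSF1 passed in the absence of the first SLC replicate and lost its call in the absence of any of the other 5 libraries (adjusted p from 0.0032 to 0.197 over its alternatives). The number of genes that passed moved from 2268 to 4679 without the first SLC replicate, and to 1155 without the third. It was 1408, 1140 and 1207 without the first, the second and the third MLC replicate.

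In the lists with LOXL2, CCL17 was the single CC ligand of 5 tested that passed, and CXCL14 (higher) and CXCL12 (lower) were those of 5 in the other classes. Their medians were -0.097 and 0.35, and 16.1% of all genes passed in this comparison. DESeq2, which called 20.5% of all genes, also called CCL5 and, as lower, CCL27. CCL27 was at -1.74 (adjusted p = 0.0563 in edgeR and 0.0337 in DESeq2). It passed the filter on low counts through SLC, which favoured a lower value in MLC. CCL17 and CXCL14 passed the filter on low counts through MLC, so nothing about the lists is concluded from these counts and medians. The 3 receptors that passed of 5 tested were lower in MLC, with ACKR4 at -2.95 (SE 0.393, adjusted p = 0.00245) and CCR4, chosen after its values were seen, at -1.67 (SE 0.41, adjusted p = 0.0309; 0.073 by DESeq2), and a median of -1.23. CCR4, the receptor of CCL17, had 45 counts in SLC and 10 in MLC with LOXL2. CCR4 and ACKR4 passed the filter on low counts through SLC, which favoured lower values in MLC. Nothing about the receptors as a list is concluded from their count and median. CSF2 and CSF1 were the genes of the colony-stimulating factor list that passed, with a median of -0.15, and CSF2 passed the filter through MLC.

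The comparison of LOXL2 with IL-1β alone in SLC asks how superficial cells given IL-1β differ with LOXL2 added. No member passed the test, and levels in the LOXL2 libraries were scattered to both sides of the IL-1β libraries for CCL5, CCL20, CXCL8, CXCL12, CSF2 and CSF3. CSF1 had its LOXL2 libraries below all IL-1β libraries. The first replicate with LOXL2 lay below all IL-1β libraries in each of the 8 genes, CCL5 and CSF3 included, and the second lay above them in 6.

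In edgeR, 0 of 8 tested members and 0 of all 14103 genes (0%) had an adjusted p under 0.05. At an unadjusted p under 0.05 there were 0 members and 6108 genes (43.3%), and DESeq2, which gave CSF2 no adjusted p, called 0 members and 4234 genes (32.5%). Groups were apart for CSF1 among the tested members and for 49% of all genes. Log2 fold changes were 0.68 for CCL20 (SE 0.547, adjusted p = 0.355), 0.56 for CCL5 (SE 0.587, adjusted p = 0.469) and 0.20 for CSF3 (SE 0.707, adjusted p = 0.84). They were -0.32 for CSF2 (SE 0.465, adjusted p = 0.6), -0.26 for CXCL8 (SE 0.246, adjusted p = 0.423) and -0.12 for CSF1 (SE 0.0948, adjusted p = 0.339). CXCL12 was at -0.14 (SE 0.139, adjusted p = 0.463) and ACKR3 at -0.088 (SE 0.109, adjusted p = 0.545). The median over the 8 was -0.11, against 0.013 over all genes tested.

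These values depend on the first and on the second replicate with LOXL2. Without the first, 8849 genes (61.7% of those tested) and 3 of 8 members passed, a smaller share. CCL20 was then at 1.12 (adjusted p = 0.000336), CCL5 at 1.01 (adjusted p = 0.0158) and CSF3 at 0.72 (adjusted p = 0.0202). Without the second replicate, CCL5 was at -0.27 and CSF3 at -0.62, so their signs turned, and CCL20 was at 0.010 against 0.68 with all libraries. Over all alternatives the adjusted p ranged from 0.000336 to 0.99 for CCL20, from 0.0158 to 0.715 for CCL5 and from 0.0202 to 0.948 for CSF3.

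In MLC, the same comparison found no member past the threshold either. CCL5 had the largest positive difference, with group means of 6.37 and 10.4 CPM and with 2 LOXL2 libraries above all IL-1β libraries. CXCL8 had the largest negative difference, with means of 329.1 and 252.8 CPM and the largest part of the gap in the second IL-1β replicate. CXCL12 had 1 of 3 LOXL2 libraries within the IL-1β range and the others below it, and ACKR3, CSF1, CSF2, CSF3 and CCL20 overlapped broadly.

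The count was 0 of 8 members in edgeR, where 21.6% of all 13664 genes tested passed (9.81% higher and 11.8% lower). At an unadjusted p under 0.05 there were 2 members (39.3% of all genes), and DESeq2 called 2 members (27.3% of genes), CCL5 and CXCL8 in both counts. Groups were apart for 0 of 8 members and for 41.5% of all genes. CCL5 differed by 0.70 (SE 0.246, adjusted p = 0.0596; 0.0249 by DESeq2). CXCL8 differed by -0.38 (SE 0.144, adjusted p = 0.0712; 0.0363 by DESeq2). The others were CCL20 at -0.31 (SE 0.207, adjusted p = 0.286), CXCL12 at -0.26 (SE 0.153, adjusted p = 0.233), CSF3 at -0.24 (SE 0.27, adjusted p = 0.536) and CSF2 at 0.12 (SE 0.249, adjusted p = 0.756). ACKR3 at -0.029 (SE 0.104, adjusted p = 0.858) and CSF1 at -0.041 (SE 0.0906, adjusted p = 0.767) had the smallest differences. The median was -0.14, against 0.0079 over all genes.

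Leaving out single MLC libraries changed these values. Without the first replicate with LOXL2, CCL5 was at 0.96 (adjusted p = 0.000257) and CXCL8 at -0.37 (adjusted p = 0.0355), and 6653 genes (48.1%) passed in place of 2958. Without the second IL-1β replicate, CXCL8 was at -0.16 (adjusted p = 0.276), CCL20 turned to 0.049 (adjusted p = 0.828), and 822 genes passed. The number of genes that passed was 474 without the third replicate with LOXL2, and 0 without its second, without the IL-1β replicates 1 or 3, and with all 12 libraries fitted together. Over all alternatives the adjusted p ranged from 0.000257 to 0.299 for CCL5 and from 0.015 to 0.277 for CXCL8.

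In the family lists, edgeR called 0 genes between treatments in either layer. Of all genes, edgeR called 0% in SLC and 21.6% in MLC, 43.3% and 39.3% had an unadjusted p under 0.05, and DESeq2 called 32.5% and 27.3%. In SLC, 0 of 4 CC ligands (median 0.62) and 0 of 4 ligands of the other classes (median -0.20) passed, with 0 at an unadjusted p under 0.05. DESeq2 called 0 of the 2 CC ligands and 4 others to which it gave an adjusted p. Among receptors, 0 of 6 passed (median 0.098), with CCR4 at an unadjusted p of 0.0355, and DESeq2 called 0 of the 3 to which it gave an adjusted p. IL34 measured 12.0, 10.4 and 12.1 CPM in SLC with IL-1β and 11.45, 34.6 and 19.1 CPM with LOXL2, highest in the second LOXL2 replicate (log2 fold change 0.90, SE 0.359, adjusted p = 0.1; 0.0425 by DESeq2). It was the gene of the colony-stimulating factor list with an unadjusted p under 0.05, of 6 tested (median 0.02). Without the first LOXL2 replicate in SLC, edgeR called 3 of 4 CC ligands, 1 of 5 other ligands, 0 of 6 receptors and 2 of 6 genes of the colony-stimulating factor list, all higher, beside 61.7% of all genes (31.0% higher, 30.8% lower). In MLC, no chemokine ligand or receptor besides CCL5 and CXCL8 had an unadjusted p under 0.05 or a DESeq2 call (DESeq2 gave an adjusted p to 2, 3 and 2 of the classes that follow), with 3 CC ligands (median -0.12), 5 other ligands (median 0.078) and 3 receptors (median -0.029) tested. IL34 was there at 0.43 (SE 0.168, unadjusted p = 0.0246, adjusted p = 0.0798; 0.0644 by DESeq2), and the median of its list of 6 was -0.12.

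An interaction term, fitted in all 12 libraries, tested whether the LOXL2 difference itself differed between layers. In edgeR, 0 of 8 members and 0 of 14534 genes (0%) passed, with 0 members and 328 genes (2.26%) at an unadjusted p under 0.05 and 0 by DESeq2. CCL20 had the largest value at -1 (SE 0.66, adjusted p = 0.959), from positive in SLC to negative in MLC, followed by CSF3 at -0.46 (SE 0.821, adjusted p = 0.962) and CSF2 at 0.42 (SE 0.509, adjusted p = 0.959). The other 5 lay between -0.14 for CXCL8 and 0.11 for CCL5. This order rests on a single library. Without the second SLC replicate with LOXL2, CCL20 was at -0.334, CSF2 at 1.04 and CCL5 at 0.955. Without the first, CCL20 was at -1.46. The median was -0.045, against -0.022 over all genes. The LOXL2 and layer comparisons share libraries, and the values for each member stand side by side in the plot of fold changes.

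**Figure D2:**
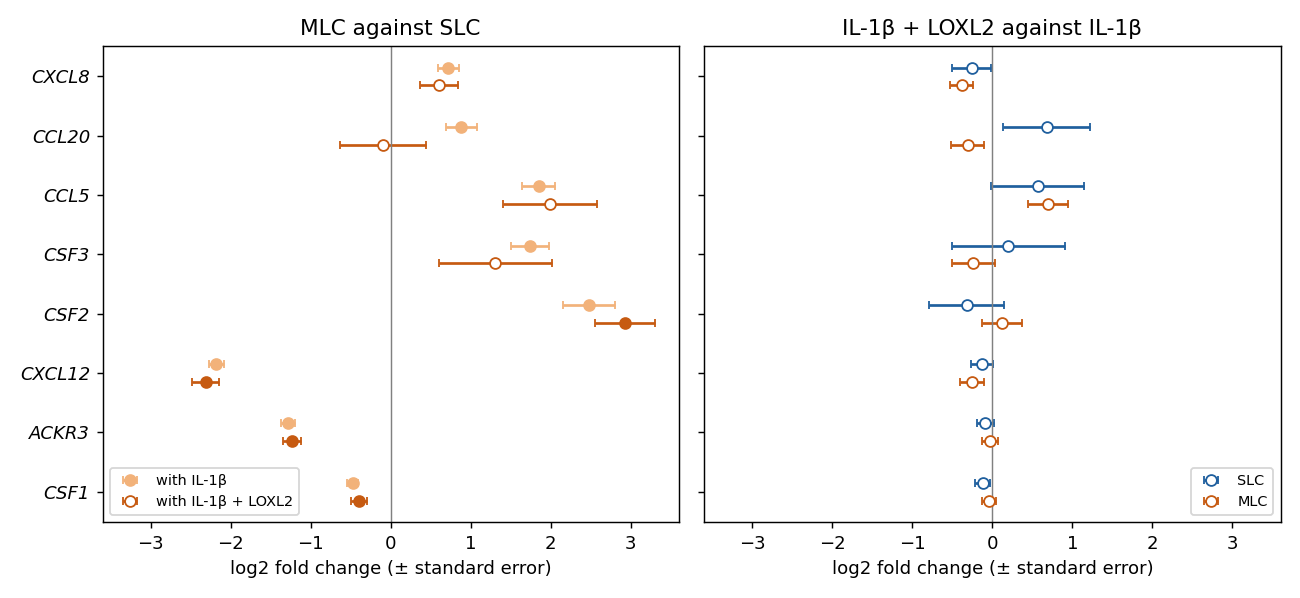
Log2 fold changes of the 8 tested members between layers (left) and between treatments (right), with bars for the standard error and filled symbols for an adjusted p under 0.05 in edgeR. CXCL12, ACKR3 and CSF1 lie left of 0 and CSF2 right of 0 in both layer comparisons, and no symbol of a LOXL2 comparison is filled.

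The spread between replicates differed by group and by gene. In SLC with IL-1β, the SD was 3.32% to 13.9% of the mean for the 8 genes. In SLC with LOXL2 it was 86.9% for CSF3, 81.1% for CCL5, 73.7% for CCL20 and 58.3% for CSF2 (5 to 17 counts). It was 35.2% for CXCL8 and 18.0% for CXCL12, but 8.34% for ACKR3 and 5.26% for CSF1. The ratio of the highest to the lowest library there was 15.2 for CSF3, 7.15 for CCL5, 6.52 for CCL20, 2.76 for CSF2 and 2.11 for CXCL8, and at most 1.44 for the other 3.

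The same libraries held the extremes of most genes. The first SLC replicate with LOXL2 was the lowest of its group in 7 of 8 genes, CSF2 being the exception, and the second was the highest in 6 of 8. In MLC with IL-1β, the second replicate was the highest in 7 of 8 and the lowest in CXCL12. In MLC with LOXL2, the first replicate was the lowest in 5 of 8, CCL5, CCL20, CXCL8, CSF2 and CSF3. The reason for these shared extremes was not tested.

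Members were correlated over the 12 libraries on the scale of log2(CPM + 1), as a description, since the points share layers, treatments and libraries. CXCL8 and CSF3 had an r of 0.945, and of 0.882 after the mean of each layer was subtracted. CCL20 and CSF3 had 0.859 and 0.931, CCL20 and CXCL8 had 0.782 and 0.789, and CCL5 and CSF3 had 0.903 and 0.768. CCL5 and CCL20 had 0.691 and 0.752, and CCL5 and CXCL8 had 0.771 and 0.43. Among libraries of a layer, CCL5 and CXCL8 thus had the lowest r of the pairs of these 4 genes.

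CXCL12 and ACKR3 had an r of 0.974 over the 12 libraries and of 0.0547 with layer means subtracted, and CXCL12 and CSF2 had -0.968 and -0.244. CXCL12 and CSF1 had 0.945 and 0.244, so these 3 pairs followed the layers. ACKR3 and CSF1 had 0.972 and 0.734. CXCL8 and ACKR3 had -0.615 over all libraries and 0.819 within layers, with opposite signs between and within the layers.

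**Figure D3:**
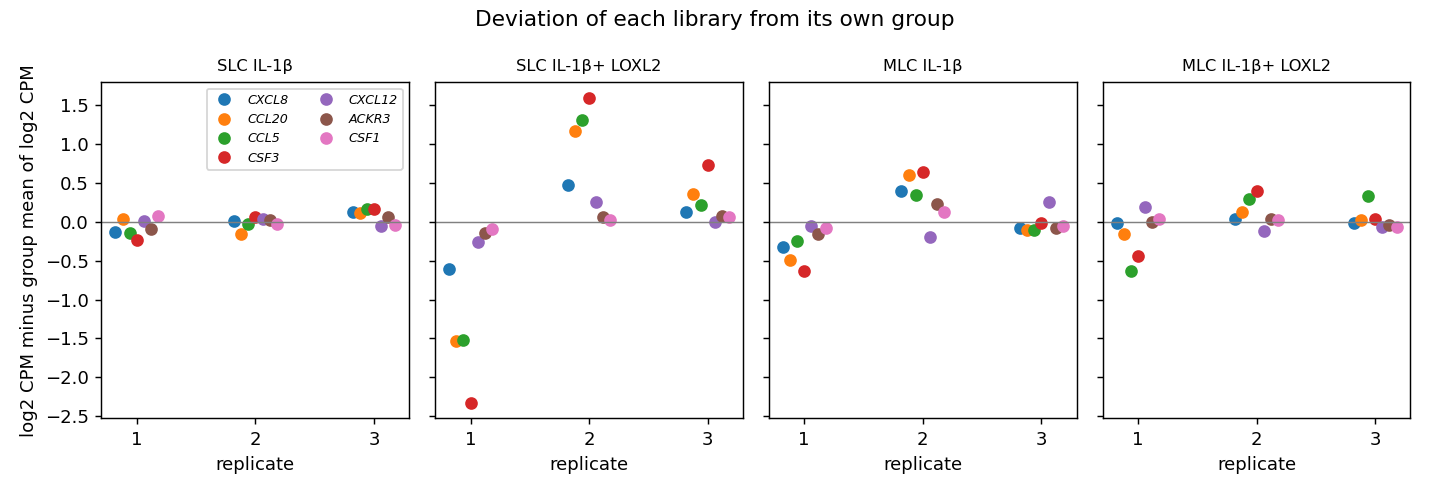
Deviation of each library from its group mean in log2 CPM, by replicate and group, for 7 members. In SLC with LOXL2, CSF3, CCL5 and CCL20 of the first replicate lie far below the group mean and those of the second above it.

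For each member, the 3 genes of the highest Pearson r were sought among 13109 genes with a mean of at least 1 CPM over the 12 libraries. CXCL8 was nearest to FOXF1 (r 0.984), IL6 (r 0.970) and PTX3 (r 0.958), and CSF3 to PTX3 (r 0.981), IL6 (r 0.963) and IL11 (r 0.962). IL6 and IL11 encode cytokines of the gp130 family and PTX3 a secreted pattern recognition protein. CCL20 was nearest to WTAP (r 0.965), FBXO2 (r 0.944) and ADAMTS7 (r 0.936), and CCL5 to HEXDC (r 0.984), SRGN (r 0.981) and TMEM132A (r 0.978). CSF2 was nearest to CHST2 (r 0.989), SYT17 (r 0.987) and SLC12A4 (r 0.986).

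Genes nearest to the members that were higher in SLC were RAB3B (r 0.992), GNG2 and ABLIM1 (both r 0.991) for CXCL12. ACKR3 was nearest to CADM4 (r 0.995), LVRN and FOXP2 (both r 0.992). CSF1 was nearest to F2RL2 and APBB3 (both r 0.984) and LVRN (r 0.982), so that LVRN was shared by both. With layer means subtracted, 2 of these 24 were again among the nearest 3, FOXF1 for CXCL8 (r 0.969) and PTX3 for CSF3 (r 0.963).

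Transcription factors that act on chemokine promoters were examined as a list of 15, all tested. With IL-1β, 5 were higher in MLC and 2 lower, a share near the 46.9% of all genes called, and their median log2 fold change was 0.17 against -0.007 over all genes. The AP-1 subunit FOSL1 was at 1.10 (SE 0.0854, adjusted p = 1.16e-07), and NFKB1 and CEBPD, the first chosen after its values were seen, were at 0.64 (SE 0.0734, adjusted p = 6.09e-06) and 0.34 (SE 0.0815, adjusted p = 0.0033). FOSL2 had a log2 fold change of -0.23 and was lower, though its call and that of CEBPD ended with all 12 libraries fitted together. With LOXL2, FOSL1 and NFKB1 were higher in MLC (1.35, adjusted p = 0.00212, and 0.80, adjusted p = 0.00268), against 16.1% of all genes called, with a median of 0.033. CEBPB passed in no comparison, with values from -0.078 in the interaction to 0.18 (adjusted p = 0.0803) between layers with IL-1β.

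In the MLC comparison of treatments, 3 of these 15 factors fell and JUND rose, a share near the 21.6% of all genes called, with a median of 0.052 against 0.0079 over all genes. REL, an NF-κB subunit, measured 6.76, 4.65 and 4.79 CPM with IL-1β and 3.40, 1.72 and 1.41 CPM with LOXL2, without overlap. Its log2 fold change was -1.29 (SE 0.3, adjusted p = 0.0209). FOSL1 was at -0.42 (SE 0.111, adjusted p = 0.0268), FOSL2 at -0.45 (SE 0.129, adjusted p = 0.0322) and JUND at 0.41 (SE 0.117, adjusted p = 0.0306). With the trend on gene span removed, JUND was at 0.19 (adjusted p = 0.133). In SLC, edgeR called 0 of 15, with 2 higher and 4 lower at an unadjusted p under 0.05 and 2 higher and 3 lower by DESeq2 (median 0.11). These shares are near those of all genes in SLC, 43.3% at an unadjusted p under 0.05 and 32.5% by DESeq2. FOSL2 was there at -0.71 (SE 0.148, adjusted p = 0.0706) and FOSL1 at -0.67 (SE 0.158, adjusted p = 0.0706).

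Regulators of AU-rich mRNA decay, a list of 12, had 5 genes that fell in MLC with LOXL2 and none that rose, with a median of -0.12 against 0.0079 over all genes, of which 21.6% were called and 11.8% were lower. CNOT1, the scaffold of the CCR4-NOT deadenylase, measured 174, 144 and 161 CPM with IL-1β and 126, 100.2 and 94.5 CPM with LOXL2. RC3H1, or Roquin, which marks cytokine mRNAs for decay, measured 48.0, 44.0 and 49.0 CPM with IL-1β and 35.75, 31.5 and 28.6 CPM with LOXL2. Both were lower in every LOXL2 library, at -0.58 (SE 0.119, adjusted p = 0.0194) for CNOT1 and -0.56 (SE 0.109, adjusted p = 0.019) for RC3H1. TIA1 was at -0.39 (adjusted p = 0.031), RC3H2 at -0.46 (adjusted p = 0.0313) and ZFP36L2 at -0.35 (adjusted p = 0.0339). With the trend on gene span removed, CNOT1 was at -0.34 (adjusted p = 0.0275), RC3H1 at -0.33 (adjusted p = 0.0281) and RC3H2 at -0.30 (adjusted p = 0.0691), and 5 genes of the list were called lower and 1 higher, where 14.7% of all genes were called (7.8% higher and 6.86% lower).

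Between layers with IL-1β, 5 of the 12 decay regulators were higher in MLC and 4 were lower (median 0.09), where 46.9% of all genes were called, 24.2% higher and 22.7% lower. With LOXL2 these counts were 2 and 1 (median 0.11), against 16.1% of all genes called. HNRNPD, which encodes AUF1, was among the former at 0.40 (SE 0.0677, adjusted p = 0.000232) and missed the threshold with LOXL2 at 0.36 (SE 0.105, adjusted p = 0.0572). The paralogs ZFP36L2 and ZFP36L1 went in opposite directions, at 0.68 (SE 0.0581, adjusted p = 3.01e-07) and -0.61 (SE 0.0738, adjusted p = 1.05e-05) with IL-1β. In SLC, edgeR called 0 of 12 between treatments, with 6 lower at an unadjusted p under 0.05 (43.3% of all genes) and 5 lower by DESeq2 (32.5% of all genes; median -0.24). RC3H1 measured 65.2, 66.3 and 56.9 CPM in SLC with IL-1β and 44.1, 29.3 and 31.9 CPM with LOXL2, without overlap (log2 fold change -0.85, SE 0.174, adjusted p = 0.0706).

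Feedback inhibitors of the IL-1 response, a list of 12, had 2 genes of 11 tested that fell in MLC with LOXL2, a share near the 21.6% of all genes called. IRAK3, an inhibitor of the IL-1 receptor complex, measured 28.3, 26.2 and 25.95 CPM with IL-1β and 19.8, 17.2 and 12.5 CPM with LOXL2, without overlap (log2 fold change -0.71, SE 0.151, adjusted p = 0.0199). NFKBIZ, a nuclear IκB protein, was at -0.45 (SE 0.113, adjusted p = 0.0241), and the list's median was -0.10. Between layers, 3 were higher and 3 lower in MLC with IL-1β (median 0.14; 46.9% of all genes called), and 1 was higher and 2 were lower with LOXL2 (median -0.14; 16.1%). The most abundant, TNIP1 and IER3, passed in no comparison, with layer differences with IL-1β of 0.027 (adjusted p = 0.797) and 0.15 (adjusted p = 0.315). IRAK3 was higher in MLC in both, at 0.42 (SE 0.0999, adjusted p = 0.00318) and 1.17 (SE 0.222, adjusted p = 0.0112). DUSP1, a MAP kinase phosphatase, was lower in both, at -0.96 (SE 0.0836, adjusted p = 3.79e-07) and -0.72 (SE 0.115, adjusted p = 0.0054). TNIP3, chosen after its values were seen, was the other gene lower with LOXL2 (-2.38, SE 0.549, adjusted p = 0.0245). In SLC, edgeR called 0 of 12 between treatments, with 1 higher and 3 lower at an unadjusted p under 0.05 and 1 higher and 2 lower by DESeq2 (median 0.094), shares below the 43.3% and 32.5% of all genes. IRAK3 measured 21.2, 22.1 and 16.9 CPM in SLC with IL-1β and 8.89, 6.67 and 6.52 CPM with LOXL2, far apart (log2 fold change -1.46, SE 0.181, adjusted p = 0.0706).

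Proteoglycans that anchor chemokines and enzymes that process them formed a list of 13, all tested. With IL-1β, 6 were higher and 4 lower in MLC (median 0.12; 46.9% of all genes called), and with LOXL2, 5 were higher and 1 lower (median 0.19; 16.1%). MMP2, the most abundant, passed in neither in edgeR, at -0.17 (adjusted p = 0.0715, but 0.0318 by DESeq2) and -0.18 (adjusted p = 0.38), nor between treatments. The glypican GPC1 was higher in both, at 0.67 (SE 0.0585, adjusted p = 3.87e-07) and 0.63 (SE 0.138, adjusted p = 0.0201). The syndecans SDC2 and SDC1, chosen after their values were seen, were at 1.69 (SE 0.0661, adjusted p = 1.23e-10) and 0.94 (SE 0.0648, adjusted p = 3.61e-08) with IL-1β. In MLC with LOXL2, 2 fell, perlecan (HSPG2) at -0.39 (SE 0.101, adjusted p = 0.0248) and the sheddase ADAM10 at -0.50 (SE 0.129, adjusted p = 0.0251), with a median of 0.037, against 21.6% of all genes called. With the trend on gene span removed they were at -0.16 (adjusted p = 0.154) and -0.23 (adjusted p = 0.093), and 3 of the 13 genes were called higher and none lower, against 14.7% of all genes called. In SLC, edgeR called 0 of 13, with 2 higher and 4 lower at an unadjusted p under 0.05 and 2 higher and 3 lower by DESeq2 (median -0.068), near the 43.3% and 32.5% of all genes.

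The calls of these 4 lists between treatments in MLC had the limits of that comparison. None of their genes passed without IL-1β replicate 1 or 3, without the second replicate with LOXL2, or with all 12 libraries fitted together. The named genes kept their sign in each fit without a single library, from -1.79 to -1.03 for REL, from -0.716 to -0.498 for CNOT1 and from -0.867 to -0.538 for IRAK3. Between treatments in SLC without the first LOXL2 replicate, edgeR called 7 higher and 4 lower of 15 transcription factors, 1 and 7 of 12 regulators of mRNA decay, 5 and 3 of 12 feedback inhibitors and 3 and 4 of 13 anchors and enzymes, beside 61.7% of all genes. The interaction test in edgeR called 0 genes in each of the lists, as did DESeq2, with IRAK3 and SDC2 at an unadjusted p under 0.05. Between layers with LOXL2, the calls of ZFP36L1, ZFP36L2, IRAK3, TNIP3 and GPC1 ended without the third SLC replicate and without the second MLC replicate, as did those of CCR4 and VWF.

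Markers of other cell types were read because leukocytes and vessel cells also make and bind these factors. Of 11 leukocyte and macrophage markers, 10 had a row and 6 were tested. PTPRC, the pan-leukocyte antigen CD45, had 3 counts in all 12 libraries together, TYROBP 7, AIF1 38 and ITGB2 52. The counts of ITGB2 were 6, 6, 8, 9, 9 and 6 in SLC and 1, 1, 2, 2, 0 and 2 in MLC, the opposite direction to CD14. The summed level of the list was 98.0, 80.0 and 84.4 CPM in SLC with IL-1β and 59.0, 100.8 and 82.0 CPM with LOXL2. It was 99.0, 143.0 and 109.5 CPM in MLC with IL-1β and 101.5, 103.0 and 86.7 CPM with LOXL2, most of it CD14. CD14, a co-receptor for lipopolysaccharide, was higher in MLC with IL-1β (log2 fold change 0.49, SE 0.119, adjusted p = 0.00397), as CSF2, CCL5, CSF3, CCL20 and CXCL8 were, and its part in that result was not tested. Its call ended with all 12 libraries fitted together (adjusted p = 0.0892), and without the second MLC replicate its difference was 0.30. No other leukocyte marker, LAPTM5 included, passed in edgeR in any comparison. That made 1 of 6 called between layers with IL-1β, where 46.9% of all genes were, and 0 of 6 elsewhere, against 16.1% between layers with LOXL2, 21.6% for LOXL2 in MLC and 0% in SLC. With LOXL2, CD14 was lower in MLC and CD68 was higher in SLC at an unadjusted p under 0.05, and DESeq2 called CD68 in SLC. Of all genes, 39.3% in MLC and 43.3% in SLC had such an unadjusted p, and DESeq2 called 32.5% in SLC.

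Of 8 endothelial markers, EMCN was at 0, CDH5 had 3 counts, CLDN5 had 8 and PECAM1 had 58 in all libraries together (23 with IL-1β and 26 with LOXL2 in SLC, 6 and 3 in MLC), and their summed level was 2.92 to 5.23 CPM. Of the 2 tested, VWF was higher in MLC in both treatments (1.27, SE 0.221, adjusted p = 0.000287 and 1.06, SE 0.272, adjusted p = 0.0361) and TEK was lower with IL-1β (-0.82, SE 0.312, adjusted p = 0.0431; 0.106 by DESeq2). Of all genes, 46.9% were called between layers with IL-1β and 16.1% with LOXL2. TEK lost its call in each fit that left out an SLC replicate or the first MLC replicate. Neither gene passed between treatments in edgeR or, where it gave an adjusted p (not for TEK in MLC), in DESeq2, and TEK in SLC had an unadjusted p of 0.0317.

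Of 9 pericyte and smooth muscle markers, 7 were tested in MLC, and ACTA2, TAGLN and CNN1, genes of the contractile apparatus, rose with LOXL2. Of all genes, 21.6% were called and 9.81% rose. The 3 log2 fold changes were 0.54 (SE 0.108, adjusted p = 0.0193), 0.53 (SE 0.109, adjusted p = 0.0194) and 0.52 (SE 0.126, adjusted p = 0.0229), with a list median of -0.033. The summed level was 2986, 2708 and 2954 CPM with IL-1β and 3317, 3990 and 4228 CPM with LOXL2 in MLC, most of it TAGLN and ACTA2. In SLC it was 3420, 4133 and 4072 CPM with IL-1β and 4274, 4433 and 4789 CPM with LOXL2. Between layers, 1 was higher and 5 were lower in MLC with IL-1β (median -0.37; 46.9% of all genes called), and 1 was higher and 2 were lower with LOXL2 (median -0.086; 16.1%). PDGFRB, a pericyte receptor, was lower in both, at -0.81 (SE 0.081, adjusted p = 1.41e-06) and -0.74 (SE 0.125, adjusted p = 0.00666).

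Of the remaining marker lists, chondrocyte COMP (0.37, SE 0.101, adjusted p = 0.0283) and fibrous layer THY1 (0.40, SE 0.0946, adjusted p = 0.0214) rose in MLC with LOXL2, and with the trend on gene span removed COMP was at 0.22 (adjusted p = 0.0721). COMP went against most of its list, in which 2 of 8 tested genes had positive and 6 negative values (median -0.17), ACAN at -0.23 (adjusted p = 0.145) and COL11A1 at -0.23 (adjusted p = 0.14). In the fibrous layer list 6 of 8 were positive and 2 negative (median 0.037), COL1A1 at 0.12 (adjusted p = 0.295), COL1A2 at 0.0043 (adjusted p = 0.976) and COL3A1 at -0.13 (adjusted p = 0.287). Between layers with LOXL2, 3 fibrous layer markers were higher and 1 lower in MLC (median 0.28; 16.1% of all genes called). Of 6 osteoblast markers, 4 were tested between layers with IL-1β and 5 with LOXL2, of which 3 and 1 were called (46.9% and 16.1% of all genes). SPP1, or osteopontin, was higher in MLC with IL-1β and with LOXL2 (2.86, SE 0.0711, adjusted p = 1.05e-12 and 2.73, SE 0.2, adjusted p = 0.000297), and RUNX2 and ALPL were lower with IL-1β, ALPL with a call lost in each fit that left out an MLC replicate. BGLAP, or osteocalcin, did not pass in edgeR, at 0.74 (adjusted p = 0.0882) and 1.14 (adjusted p = 0.0782). With LOXL2, DESeq2 called BGLAP (adjusted p = 0.0358) and, as lower, ALPL (adjusted p = 0.0402), where it called 20.5% of all genes. It did not call ALPL with IL-1β (adjusted p = 0.118). The summed osteoblast level was 50.1, 53.5 and 52.0 CPM in SLC and 129, 124 and 126 CPM in MLC with IL-1β. With LOXL2 it was 55.8, 40.6 and 43.5 CPM in SLC and 130.4, 132 and 124 CPM in MLC. Between treatments in SLC, edgeR called 0 markers of each cell type. At an unadjusted p under 0.05 there were 3 of 8 fibrous layer markers, 3 of 8 pericyte and smooth muscle markers, 1 of 4 osteoblast markers and 0 of 6 chondrocyte markers (43.3% of all genes), and DESeq2 called THY1 and COL3A1 among them (32.5% of all genes). Of 3 osteoblast markers tested between treatments in MLC, 0 passed by edgeR, DESeq2 or an unadjusted p under 0.05.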

How the data were processed

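The authors deposited unnormalized counts of reads per gene for each layer, in 2 tables of 28910 rows. Their processing notes name HISAT2 and featureCounts with the goat genome ARS1.2, without settings for strand or multi-mapping reads. Labels name RNeasy for RNA extraction and the paper TRIzol. Names shared by several rows (1783 rows) include no member. In R 4.3.3, genes were tested with edgeR 4.0.16 (TMM, filterByExpr at a count of 10 and a total of 15, then glmQLFit and glmQLFTest) on the 6 libraries of a comparison, without a block, Benjamini-Hochberg adjusted over all genes tested, at a threshold of 0.05. The interaction used all 12. A gene with few counts in a layer could pass the filter through the other layer. This held for the member CSF2 and for CCL17, CXCL14, COL2A1 and COL9A1 through MLC. It also held for ACKR4, CCR4, CCL27, ALPL and IL1RN through SLC. Their layer calls, and the counts and medians of members and lists that hold them, carry that limit. The SE is the absolute log2 fold change over the root of F. Positive values are higher in MLC, or with LOXL2. Likeness used log2(CPM + 1) and genes with a mean of at least 1 CPM. A lowess trend (smoothing 0.3) of each library's log2 CPM over genomic span, introns included, was given to edgeR as an offset to remove the gene-span trend.

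Replicates of the same number were taken as pairs where their deviations correlated over genes in each of 3 replicates. This held between the layers with LOXL2 alone, although a pair of different numbers reached 0.612 there. Alternatives were DESeq2 1.42.0 size factors, no filter, at least 10 counts per library, the Wald test of DESeq2, the replicate block, all 12 libraries fitted together, leaving out each library, a log2 fold change of at least 1 and the removed gene-span trend. limma 3.58.1 was loaded by edgeR. The procedure was tested on simulated data. Count floors cover counting error only.

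The members and lists were chosen with earlier results of these data known. Named are the 10 members, LOXL2, the 3 nearest genes per member and, from each list, genes past the threshold in a LOXL2 comparison (at most 5) and the 3 of highest mean CPM. Any other gene was named after its values were seen, COL2A1, SOX9, PRG4, SDC1, SDC2, NFKB1, TNIP3, CXCL14, CCR4, CCR6, XCR1, CSF2RB, CSF3R, CSF1R, CSF2RA, ALPL and markers with few counts included. The lists are CC ligands, CXC, C and CX3C ligands, chemokine receptors, colony-stimulating factors and receptors, transcription factors, decay regulators, feedback inhibitors, anchors and processing enzymes, and markers of chondrocytes, the fibrous layer, leukocytes, endothelium, pericytes and smooth muscle, and osteoblasts.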

Additional observations from a re-analysis of the deposited data

How the results depend on the processing

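DESeq2 size factors in edgeR and a minimum of 10 counts in every library changed no member's call or direction (40 and 36 values; CSF2 was left untested by the minimum in comparisons with SLC libraries). Size factors moved the group means by at most 0.911%. With IL-1β, 5 members (CSF2, CCL5, CSF3, CXCL12 and ACKR3) and 1523 genes passed between layers at a log2 fold change of at least 1, and CXCL8, CCL20 and CSF1 did not. In the other alternatives that tested them, the layer calls with IL-1β held, except that of CCL20 with all 12 libraries fitted together. Between layers with LOXL2, CSF1 lost its call with no filter (-0.41, adjusted p = 0.0629, in a range of 0.0032 to 0.197) and in 5 of 6 fits without a library. The fit on all 12 libraries called 3715 genes between layers with IL-1β, 5965 for LOXL2 in SLC, 0 for LOXL2 in MLC and 4199 between layers with LOXL2. A log2 fold change of at least 1 left 141 genes for LOXL2 in MLC and 1382 between layers with LOXL2. DESeq2 called 4234 genes for LOXL2 in SLC, and for LOXL2 in MLC 2 members passed by DESeq2, 2 with no filter and 1 with the gene-span trend removed. With that trend removed, CSF3 in SLC turned to -0.20, CSF2 in MLC to -0.086, CCL20 between layers with LOXL2 to 0.021 and the interaction of CXCL8 to 0.026.

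With the replicate block, 3887 genes (2030 higher, 1857 lower) and 7 members passed between layers with LOXL2, with CCL20 turned to 0.22, and 2 members for LOXL2 in MLC. CSF3 in SLC turned to -0.24. The block called 0 genes for LOXL2 in SLC, 4053 in MLC, 5816 between layers with IL-1β and 0 for the interaction. Correlations that decided the pairing were 0.0746, -0.32 and 0.246 for LOXL2 in SLC, 0.12, 0.194 and -0.105 in MLC, and -0.0884, -0.171 and -0.0813 between layers with IL-1β. With both first LOXL2 replicates left out, chosen after seeing the data, 4453 genes and 7 members passed between layers and 2 genes for the interaction, and the interaction turned to -0.081 for CCL5 and -0.024 for ACKR3.

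With each library left out in turn, genes called ranged from 0 to 8849 and members from 0 to 3 for LOXL2 in SLC, from 0 to 6653 and 0 to 2 in MLC, and from 1140 to 4679 genes between layers with LOXL2, with 0 to 1 for the interaction. Directions turned for CCL5 (-0.27 to 1.01) and CSF3 (-0.62 to 0.72) in SLC, and in MLC for CCL20 (-0.52 to 0.049), ACKR3 (-0.10 to 0.097), CSF1 (-0.0802 to 0.027), CSF2 (-0.079 to 0.36) and CSF3 (-0.49 to 0.14). They turned for CCL20 between layers with LOXL2 (-0.55 to 0.56), and in the interaction for CCL5 (-0.34 to 0.96), CXCL8 (-0.38 to 0.12), CXCL12 (-0.25 to 0.0078), ACKR3 (-0.029 to 0.17) and CSF3 (-0.98 to 0.37). With layer means subtracted, 2 of the 24 nearest genes were shared. The cause was not tested for any of these. Counts of CX3CL1 and of CSF2 in SLC limit what could be seen of them.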
